A study of Raphidocelis subcapitata with 72 samples.

Results

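The cultures described here are those of Raphidocelis subcapitata, a unicellular freshwater green alga used in toxicity tests, sampled 4 h after iron nanoparticles were added. The nZVI-headed cultures, labelled as exposed to 100 mg/L of nanoscale zero-valent iron, are set against those labelled as exposed to 100 mg/L of magnetite nanoparticles (nFe3O4). All libraries headed T4nZVI or T4Fe in the count table were taken, which is 24 of the 72 deposited samples. They come from 3 biological replicates a group, each in 4 sub-samples read as sequencing lanes and summed, so 6 libraries were compared. The particle-free cultures of the same hour, called control-headed here, are given for scale. All groups are strain ATCC 22662, grown to mid-log phase under constant white light with CO2-enriched air. Per the labels' protocols, each replicate was a flask started from pre-grown culture and sampled at 1 h and 4 h. Same-numbered libraries of both hours may therefore come from one flask. Whether flasks of a group shared a pre-culture is not stated, and p-values cover the variation among these flasks.

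The group names rest on the headings of the count table. Over the 49 genes shared with the authors' transformed table, the control-headed and nZVI-headed libraries at 4 h each best matched the library of the other name with its own replicate number, with correlations across genes of 0.945 to 0.991. The nFe3O4 libraries at 4 h matched their own name, at 0.955 to 0.973. Under the names of the transformed table, the comparison is therefore particle-free against magnetite cultures, and the control-headed cultures are those given zero-valent iron. Which naming is right cannot be told apart from the files. The values below are the same under either naming, and only the names of the nZVI-headed and control-headed groups depend on it.

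Zero-valent iron corrodes in aerated water and releases ferrous iron, which with hydrogen peroxide gives hydroxyl radicals by the Fenton reaction. Magnetite is a mixed-valence iron oxide that dissolves more slowly. Algae keep free iron low with regulated uptake and storage and detoxify reactive oxygen with antioxidant enzymes. The comparison asks how far the transcriptomes of the cultures under these headings differ after 4 h. Locus identifiers stand in the files without gene names or products. Genes are therefore given by identifier, few are named, and nothing is said of their function.

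Totals of the 6 libraries ran between 28947855 and 43364641 counts. Of 12181 genes in the table, 11841 passed the low-count filter over all groups. Of the 1 h libraries used further on, nFe3O4 replicate 2 was an exact copy of a lane of replicate 1 and was left out, so that group has 2 libraries. The 340 genes left out had at most 159 counts in any of the 6 libraries. No gene of the table was at 0 counts in every library of one group and above 3 counts in every library of the other.

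As whole transcriptomes, the nZVI-headed libraries lay as near to nFe3O4 replicates 1 and 2 as to each other. The distance between libraries was taken as the root mean square difference of log2 CPM over the 11841 genes, where CPM is the gene's count relative to the scaled library size. Pairs of nZVI-headed libraries were 0.412, 0.413 and 0.507 apart. The 6 pairs of an nZVI-headed library with nFe3O4 replicate 1 or 2 were 0.410 to 0.480 apart, and those nFe3O4 replicates were 0.436 from each other. The between-group and within-group distances thus overlapped. By contrast, nZVI-headed libraries lay 0.548 to 0.808 from control-headed libraries. The nFe3O4 replicate 3 stood apart, at 0.663 and 0.733 from its own group and at 0.616 to 0.788 from the nZVI-headed libraries.

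**Figure D1:**
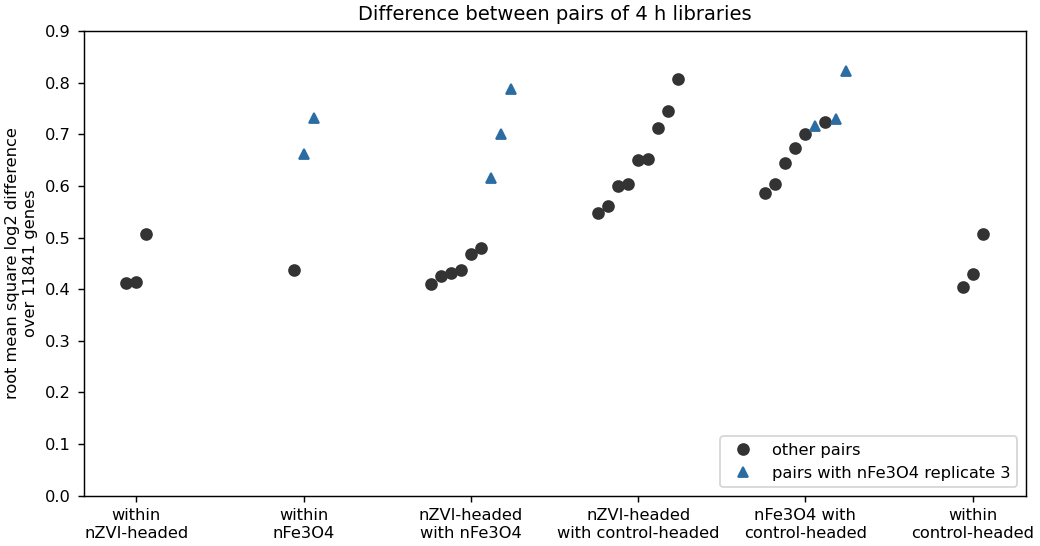
Root mean square log2 difference between pairs of 4 h libraries (vertical axis), by the groups of the pair (horizontal axis). Each point is a pair, and triangles mark pairs with nFe3O4 replicate 3. Without that library, nZVI-headed and nFe3O4 libraries are 0.410 to 0.480 apart, which overlaps the 0.412 to 0.507 of pairs inside the nZVI-headed group.

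The genes that set nFe3O4 replicate 3 apart were nearly all low in it. Among 6385 genes whose mean log2 CPM was 3 or more, 262 were at least 2-fold below the median of the other 5 libraries in replicate 3 and 3 were at least 2-fold above. Treated the same way, each of the other 5 libraries had between 3 and 23 genes at least 2-fold away in either direction. The 262 genes had a median of 6.39 CPM in nFe3O4 replicate 3. Their medians were 17.4, 23.9 and 30.4 CPM in the nZVI-headed libraries and 22.4 and 29.4 CPM in nFe3O4 replicates 1 and 2. These genes were chosen by their level in replicate 3 at 4 h, so that low level is a description.

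The 1 h libraries took no part in that choice, and the same genes were low in nFe3O4 replicate 3 there too. At 1 h, 261 of the 262 genes were lower in nFe3O4 replicate 3 than in replicate 1, and 238 were at least 2-fold lower, which is 90.8% of them. Of all 6385 genes at that level, 47.4% were lower in replicate 3 at 1 h and 4.73% at least 2-fold lower. The median of the 262 genes at 1 h was 6.32 CPM in nFe3O4 replicate 3 and 20.6 CPM in nFe3O4 replicate 1. Across the 11841 genes, the deviation of replicate 3 from the rest of its group at 4 h and at 1 h correlated with r = 0.654. These libraries share a replicate number and possibly a flask, and the value is a description over genes. In control-headed libraries the medians of the 262 genes were 13.6 to 23.0 CPM at 4 h and 9.26 to 12.4 CPM at 1 h, above those of nFe3O4 replicate 3. Of the 262 genes, 6 had an unadjusted p below 0.05 between nZVI-headed and nFe3O4 libraries at 4 h, or 2.29%, against 7.05% of all genes. Choosing genes that are low in a single nFe3O4 library widens the spread inside that group, which favours a low share. The share is therefore a description. The median 95% interval of the 262 genes reached 2.09-fold to either side, about the size an estimate needed for that p in the median gene of the set.

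A single gene passed the test at 4 h. RSUB_12574 stood at 13.6, 13.2 and 14.6 CPM in the nZVI-headed libraries, against 38.9, 41.1 and 38.3 CPM in the nFe3O4 libraries. The groups did not overlap. It was 2.86-fold lower in nZVI-headed cultures, a log2 fold change of -1.51 with a 95% interval of -1.74 to -1.29 (SE 0.11, Benjamini-Hochberg adjusted p = 3.20e-06 by the quasi-likelihood test of edgeR). This was 1 of 11841 genes, or 0.00845%, with 0 higher and 1 lower in nZVI-headed cultures. The control-headed libraries held 46.7, 58.1 and 56.7 CPM of it at 4 h, above both other groups. Against these, nFe3O4 cultures were lower by a log2 fold change of -0.45 (adjusted p = 0.00654, same test).

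RSUB_12574 was also lower at 1 h, in libraries that enter neither 4 h group but may come from the same flasks. Both tests took the spread of the gene from the same fit. It had 12.1, 12.3 and 10.9 CPM in nZVI-headed libraries, against 38.4 and 34.6 CPM in the 2 distinct nFe3O4 libraries. Its log2 fold change at 1 h was -1.63 (SE 0.12, adjusted p = 3.42e-06 by edgeR's test). The difference between the hours was 0.12, with a 95% interval of -0.21 to 0.45, so the values at 4 h and 1 h were within about 1.37-fold of each other. Left-out libraries did not change this call at 4 h: over the 6 fits that each left out one library of the groups compared, the log2 fold change was -1.56 to -1.48.

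The gene with the next smallest p at 4 h among those lower in nZVI-headed cultures was RSUB_09032, which did not pass. It held 9.87, 8.60 and 11.6 CPM in nZVI-headed libraries, against 20.1, 20.5 and 17.6 CPM in nFe3O4 libraries. The groups did not overlap. Its log2 fold change was -0.95, with a 95% interval of -1.27 to -0.63 (adjusted p = 0.0725, edgeR's test). The adjusted p was 0.0323 to 0.717 over the 6 fits that left out one library, and 1.40e-04 by DESeq2, so the call depended on the fit. At 1 h it was at 18.1, 14.8 and 14.2 CPM in nZVI-headed libraries, against 36.1 and 31.7 CPM in nFe3O4 libraries. There it passed edgeR's test at a log2 fold change of -1.11 (adjusted p = 0.00366). Control-headed libraries at 4 h held 23.8, 34.0 and 33.0 CPM.

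Neither gene with the smallest p among those higher in nZVI-headed cultures passed edgeR's test. RSUB_04921 held 67.0, 61.6 and 69.7 CPM in nZVI-headed libraries, against 32.6, 20.7 and 33.6 CPM in nFe3O4 libraries. RSUB_06102 held 17.4, 21.3 and 23.3 CPM in nZVI-headed libraries, against 13.5, 12.7 and 11.6 CPM in nFe3O4 libraries. Neither gene overlapped between the groups. The log2 fold changes were 1.19 for RSUB_04921, with a 95% interval of 0.70 to 1.67, and 0.71 for RSUB_06102, with an interval of 0.42 to 1.01. The adjusted p was 0.220 for both by edgeR's test, and 6.85e-04 and 0.00517 by DESeq2.

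These genes differed in which group stood apart from the control-headed libraries. RSUB_04921 was at 54.0, 70.1 and 85.9 CPM in control-headed libraries at 4 h, a range that takes in the nZVI-headed values and lies above all 3 nFe3O4 values. RSUB_06102 was at 5.17, 6.76 and 5.45 CPM there, below both other groups. At 1 h the nZVI-headed and nFe3O4 libraries overlapped in both genes. RSUB_04921 had 38.0, 23.7 and 22.3 CPM in nZVI-headed libraries, against 26.3 and 18.4 CPM in nFe3O4 libraries at that hour. RSUB_06102 had 24.3, 23.0 and 24.3 CPM in nZVI-headed libraries, against 22.0 and 24.0 CPM in nFe3O4 libraries. Their log2 fold changes at 1 h were 0.33 and 0.06, and the adjusted p of the difference between the hours was 0.400 and 0.259 by edgeR's test, so no change between the hours was called.

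**Figure D2:**
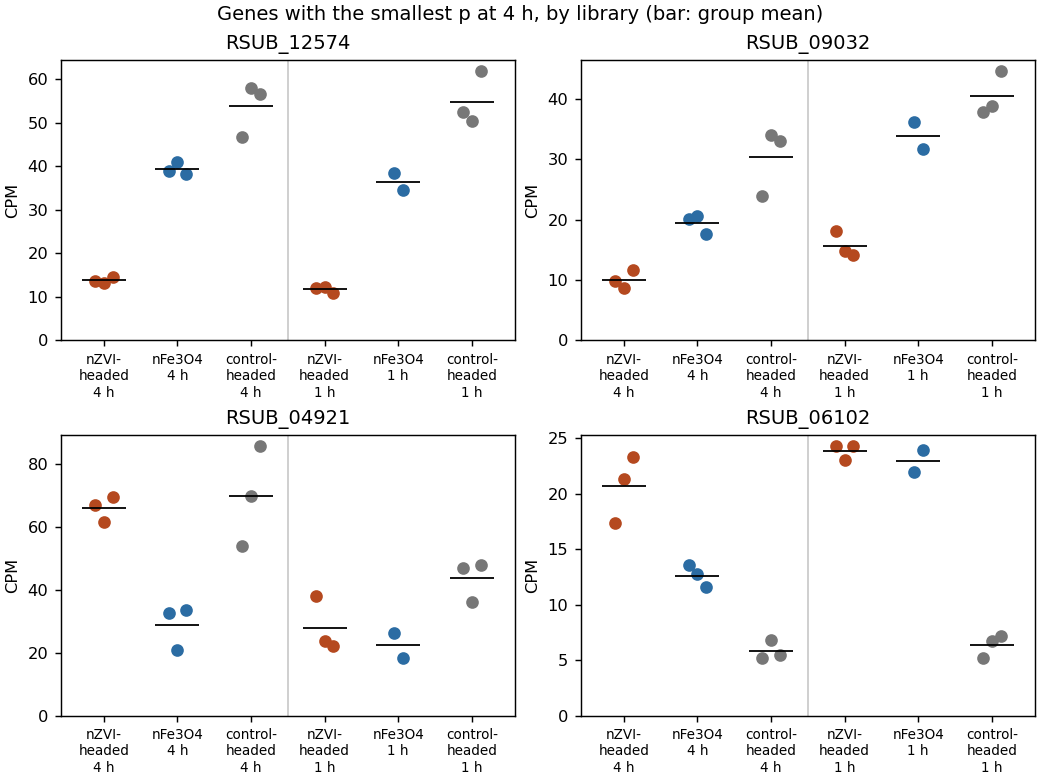
CPM (vertical axis, linear from 0) of the 4 genes with the smallest p at 4 h in either direction, with one point per library, a bar at each group mean and the groups of 4 h left of those of 1 h. RSUB_12574 and RSUB_09032 are lower in nZVI-headed than in nFe3O4 libraries at both hours, whereas RSUB_04921 and RSUB_06102 are higher without overlap at 4 h and overlap at 1 h.

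Beyond these genes, how many genes had a small p depended on single libraries. An unadjusted p below 0.05 was reached by 835 genes, or 7.05%, where 5% of unchanged genes would reach it. Of these, 371 (3.13% of all genes) had the higher and 464 (3.92%) the lower value in nZVI-headed cultures. Their median absolute log2 fold change was 0.41, and 625 of them differed by less than 1.5-fold. Without nFe3O4 replicate 3, 498 genes reached that p, or 4.21%, with 246 higher and 252 lower. Without nFe3O4 replicate 2, the count was 1363, with 702 higher and 661 lower. With DESeq2's size factors in edgeR there were 401 higher and 405 lower, so neither the share nor its balance of directions held across these settings. The smallest adjusted p after that of RSUB_12574 was 0.0725, and 23 genes were under 0.25.

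The libraries of the groups did not overlap for 1404 genes, or 11.9%, with 590 higher and 814 lower in nZVI-headed cultures. With so few libraries a group, unchanged genes can also fail to overlap, so this share is a description. Estimates of at least 2-fold were found for 162 genes, or 1.37%, of which 82 had an unadjusted p below 0.05. Almost all were of low abundance: 6 of the 162 had a mean log2 CPM of at least 3. DESeq2 called 26 of 11472 genes, or 0.227%, with 14 higher and 12 lower in nZVI-headed cultures. All 26 had an unadjusted p below 0.05 in edgeR's test, against 7.05% of all genes, with adjusted p there between 3.20e-06 and 0.395. Both tests used the same counts, so this overlap is a description.

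Set beside the control-headed libraries, both the nZVI-headed and the nFe3O4 cultures differed by more than they did from each other. The median absolute log2 fold change over all genes was 0.14 between nZVI-headed and nFe3O4 cultures. It was 0.29 for nZVI-headed and 0.30 for nFe3O4 cultures, each against control-headed ones. Among genes whose mean log2 CPM was 3 or more, 6 differed at least 2-fold between nZVI-headed and nFe3O4 cultures, while 255 and 221 did so between each of these and the control-headed cultures. Against the control-headed cultures, 2353 genes (19.9%) changed in nZVI-headed and 2720 (23%) in nFe3O4 cultures by edgeR's test. Estimates of at least 2-fold made up 7.24% and 6.42% of all genes in these comparisons, which share the control-headed libraries.

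Genes that differed from the control-headed cultures in both groups were also measured between nZVI-headed and nFe3O4 cultures. A set of 349 genes was called and at least 2-fold different from control-headed libraries in both groups, in the same direction. Their median absolute log2 fold change against control-headed libraries was 1.42 in nZVI-headed and 1.48 in nFe3O4 cultures. Choosing genes past the same limits in the same direction in both groups favours a small difference between them and leaves out genes that differed in 1 group, so the values that follow are a description. Between nZVI-headed and nFe3O4 cultures it was 0.16. The 95% interval of that difference lay inside 2-fold for 257 of the 349 genes, and 17 had an unadjusted p below 0.05, or 4.87%. For the remaining genes of the set a difference of 2-fold or more was within the interval.

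**Figure D3:**
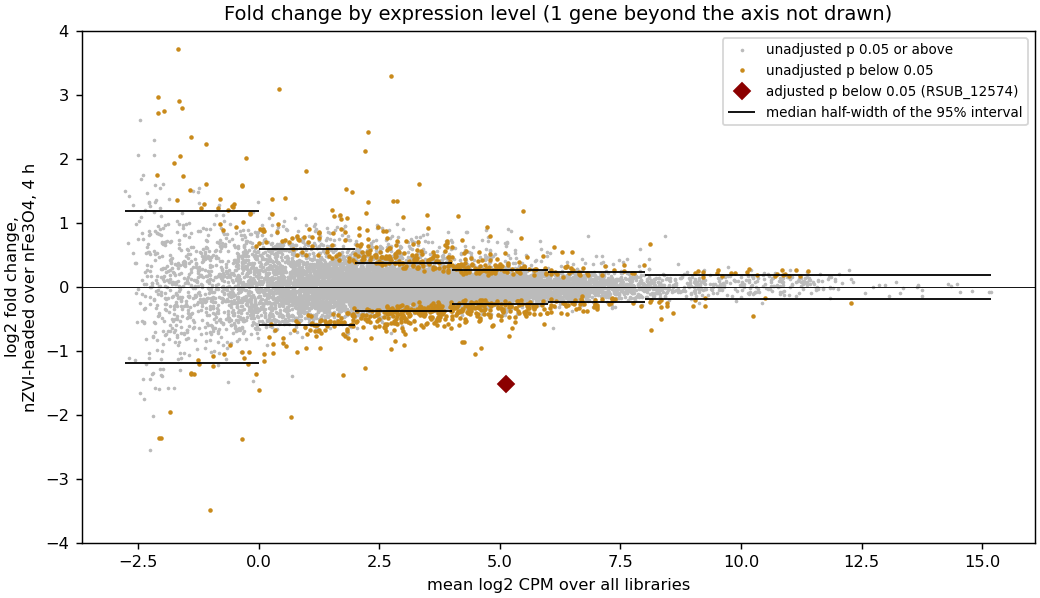
Log2 fold change of nZVI-headed over nFe3O4 cultures at 4 h (vertical axis) against mean log2 CPM (horizontal axis), one point per gene, with black lines at the median reach of the 95% interval in 6 expression levels. The called gene RSUB_12574 lies at -1.51, outside a cloud that narrows with abundance. One gene beyond the axis limit of 4 is not drawn.

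With so few calls, what the libraries could have shown matters as much as what passed. For each gene the 95% interval of the log2 fold change was taken from the fit. Its reach to either side is also about the size an estimate must have to just give an unadjusted p of 0.05. The interval rests on the standard error and p on the quasi-likelihood test, so the match is approximate. For a call among 11841 genes a stricter p is needed. The estimate that would reach 0.05 divided by the number of genes, or 4.22e-06, was taken as the size a call needed. The Benjamini-Hochberg rule asks for a p this small only when a single gene passes, and for a less strict one when more do. A true change of the size needed can give a smaller estimate and be missed, so larger changes than these could be hidden. The sizes needed use the standard error at the observed counts, so the largest of them, in weakly expressed genes, are rough.

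Abundant transcripts were measured closely. The 417 genes at a mean log2 CPM of 8 and above had a median of 23832 counts per library and held 75.5% of all counts of the 6 libraries. Their median interval reached 1.14-fold to either side, and a call needed an estimate of 1.55-fold in the median gene. For 410 of them, or 98.3%, the interval lay inside 2-fold, and for 94.2% inside 1.5-fold. In this group a 2-fold change was outside the interval for all but 7 genes.

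The next levels lost some of that precision. At 6 to 8 (977 genes, median 3587 counts) the interval reached 1.17-fold and a call needed 1.67-fold. At 4 to 6 (2869 genes, median 988 counts) the values were 1.20-fold and 1.82-fold. The interval lay inside 2-fold for 97.0% and 95.7% of the genes of these levels. RSUB_12574, at 5.13, belongs to the lower of them, and its 2.86-fold difference was past what a call needed in the median gene there.

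Genes at 2 to 4 are the most numerous, and for them a 2-fold change would often have gone uncalled. They number 4167, with a median of 284.5 counts per library. The median interval reached 1.30-fold, and a call needed 2.33-fold in the median gene and 4.42-fold at the 90th percentile. A difference of 2-fold was nonetheless outside the interval for 90.5% of them, and one of 1.5-fold for 58.6%.

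Weakly expressed genes were left widely unconstrained. At 0 to 2 (2390 genes, median 80.1 counts) the interval reached 1.52-fold, a call needed 3.86-fold and 68.7% of intervals lay inside 2-fold. Below 0 (1021 genes, median 16 counts) it reached 2.29-fold and a call needed 14.6-fold. There 6.66% of intervals lay inside 2-fold and 69.4% inside 4-fold. A 2-fold change in a gene of this level could thus be present in nearly any of them without being detectable at this depth and replication.

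Over all levels, the interval lay inside 1.5-fold for 6426 genes (54.3%), inside 2-fold for 9586 (81.0%) and inside 4-fold for 11478 (96.9%). A change of at least 2-fold therefore remained possible in 2255 genes, of which 953 were below a mean log2 CPM of 0 and 747 at 0 to 2. Of the 303 such genes whose mean log2 CPM was 3 or more, nFe3O4 replicate 3 was the library farthest from the median of the 6 in 265, or 87.5%. It was the farthest in 29.1% of all genes. Without that library, 261 genes at this level had an interval that reached past 2-fold, in a fit with 1 library fewer.

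**Figure D4:**
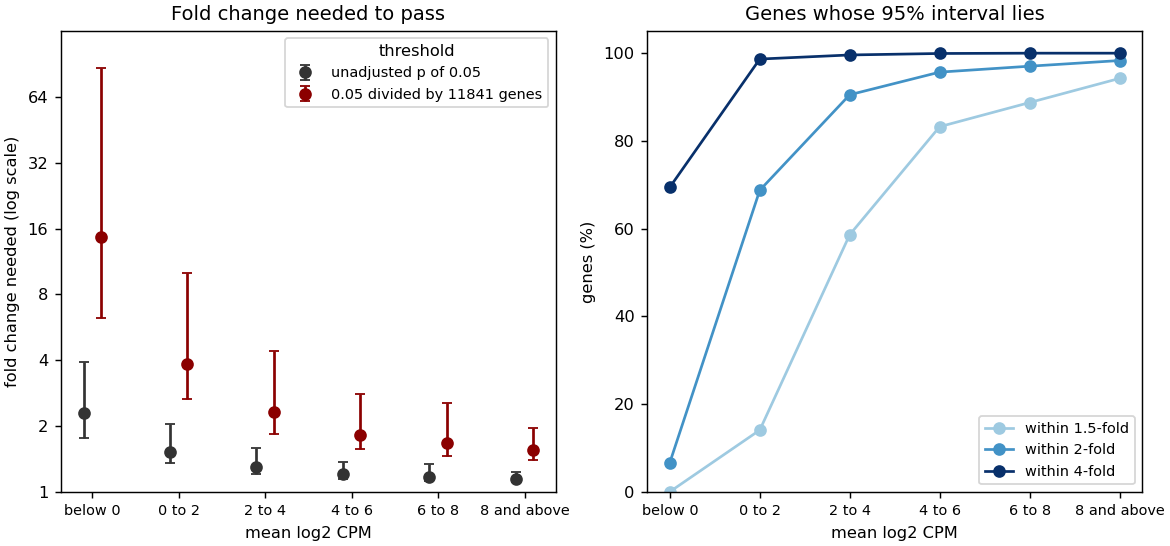
Left: estimated fold change needed to reach an unadjusted p of 0.05 or 0.05 divided by 11841 (vertical axis, log scale), by mean log2 CPM. Points are the median gene, with bars from the 10th to the 90th percentile. Right: percentage of genes whose 95% interval lies within 1.5-fold, 2-fold or 4-fold. The needed fold for the stricter threshold falls with abundance to a median of 1.55, against 14.6 in the lowest level.

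The particle comparison at 4 h was set beside that at 1 h, to ask whether the same genes separated the cultures. The hours share no libraries, though they may share flasks. The median interval reached 1.30-fold at 4 h and 1.34-fold at 1 h, where there are 2 nFe3O4 libraries. At 1 h 365 genes were called, or 3.08%, and 3.44% of all genes differed at least 2-fold. At that hour 18.8% of genes had an unadjusted p below 0.05. For the 365 called genes the median absolute log2 fold change was 0.15 at 4 h and 0.64 at 1 h, and 364 had the smaller value at 4 h. Over all 11841 genes, 7694 had the smaller value at 4 h. The 365 were chosen by their 1 h values, which favours the larger value at that hour. The 1 h estimate lay outside the 4 h interval for 337 of them, and for 349 the 4 h interval was inside 2-fold. Over all 11841 genes these counts were 2928 and 9586. The first count leaves out the error of the 1 h estimate. The test of the difference itself, given below, called 44 of the 365 and 46 of all 11841 genes. It contains the 1 h values by which the 365 were chosen, which favours calls among them.

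The genes called at 1 h were also followed by direction, with no test between the directions. Of the 222 called lower in nZVI-headed cultures at 1 h, 61 (27.5%) had an unadjusted p below 0.05 at 4 h, 47 of them in the same direction. Of the 143 called higher, 14 (9.79%) did, 8 of them in the same direction. Among all genes the share was 7.05%, or 835 genes, and 583 of these had the same sign at both hours. The counts by direction are given as a description. The median log2 fold change of the lower genes was -0.13 at 4 h and -0.69 at 1 h, and that of the higher genes 0.05 at 4 h and 0.55 at 1 h. Without nFe3O4 replicate 3 at both hours, a setting chosen after seeing the data, 47 of the 365 had an unadjusted p below 0.05 at 4 h (12.9%, against 4.08% of all genes), 33 in the same direction. Across all genes the log2 fold changes of both hours correlated with r = 0.243, and with 0.0669 without that replicate. In that fit the nFe3O4 group at 1 h is 1 library, assumed to vary like the other groups, and 14 genes were called at 1 h.

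Whether the difference itself changed between the hours was tested in the same model, which takes the libraries of both hours as independent. It was called in 46 genes, or 0.388%, with the value higher at 4 h than at 1 h in 35 and lower in 11. In 42 of the 46 the sign at 4 h was opposite to that at 1 h: 31 were lower at 1 h and higher at 4 h, and 11 the reverse. Of the 46, 44 were among those called at 1 h and 19 had an unadjusted p below 0.05 at 4 h, all 19 with the opposite sign. These genes were chosen by a large difference between the hours, which favours opposite signs and a small p at 4 h. The values are therefore a description. Over all genes, 59.6% had the same sign at both hours and 7.05% had that p at 4 h. The number of genes called moved with the libraries and the model. With libraries of one group name and replicate number taken as one flask, a fit chosen after seeing the data, 123 genes were called, 41 of the 46 among them. In that fit 2 nFe3O4 flasks were measured at both hours and 5 residual degrees of freedom remained. With the replicate number as a block across groups the count was 27. It was 0 without nZVI 4 h replicate 2 and 0 without nFe3O4 1 h replicate 3, where 899 and 800 genes had an unadjusted p below 0.05, against 1177 (9.94%) with all libraries. Leaving out nZVI 4 h replicate 1 gave 12 genes, and leaving out nZVI 1 h replicate 1 or 2 gave 21 or 20. With nFe3O4 replicate 1 or 3 of 4 h left out there were 19 or 17, and with nFe3O4 replicate 1 of 1 h left out 17. Each fit that left out an nFe3O4 library of 1 h had a lone library in that group, assumed to vary like the other groups. DESeq2 called 106 genes.

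The genes with the smallest p in this test are given by library, and their choice favours a turn between the hours. RSUB_00918 held 81.7, 85.7 and 66.1 CPM in nZVI-headed libraries at 4 h, against 63.1, 67.3 and 57.2 CPM in nFe3O4 libraries. At 1 h it held 48.7, 58.1 and 57.4 CPM in nZVI-headed libraries, against 99.1 and 101 CPM in nFe3O4 libraries. RSUB_11096 held 40.4, 38.8 and 40.3 CPM in nZVI-headed libraries at 4 h, against 34.3, 32.8 and 31.2 CPM in nFe3O4 libraries, and at 1 h 22.9, 24.6 and 27.2 CPM in nZVI-headed libraries, against 38.3 and 40.0 CPM in nFe3O4 libraries. In both genes the nZVI-headed libraries were the lower ones at 1 h, without overlap. At 4 h RSUB_11096 was without overlap in the other direction, while RSUB_00918 overlapped.

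In the opposite sense, RSUB_11153 held 21.9, 22.7 and 20.3 CPM in nZVI-headed libraries at 4 h, against 28.4, 29.5 and 40.2 CPM in nFe3O4 libraries. At 1 h it held 31.5, 28.9 and 32.9 CPM in nZVI-headed libraries, against 18.1 and 10.97 CPM in nFe3O4 libraries. RSUB_04614 held 12.9, 13.1 and 12.5 CPM in nZVI-headed libraries at 4 h, against 19.5, 16.8 and 16.2 CPM in nFe3O4 libraries, and at 1 h 19.3, 17.1 and 18.03 CPM in nZVI-headed libraries, against 12.1 and 8.65 CPM in nFe3O4 libraries. Neither gene overlapped between the groups at either hour. The value at 4 h minus that at 1 h was 1.18 (SE 0.16) for RSUB_00918, 0.94 (SE 0.14) for RSUB_11096, -1.69 (SE 0.26) for RSUB_11153 and -1.26 (SE 0.20) for RSUB_04614 on the log2 scale. The adjusted p was 0.0171 for all 4 by edgeR's test, and 0.0608 to 0.119 in the fits without nZVI 4 h replicate 2 or nFe3O4 1 h replicate 3. With the flask block it was 0.00279 to 0.00834. At 4 h alone none was called, with adjusted p of 0.466 to 0.557.

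**Figure D5:**
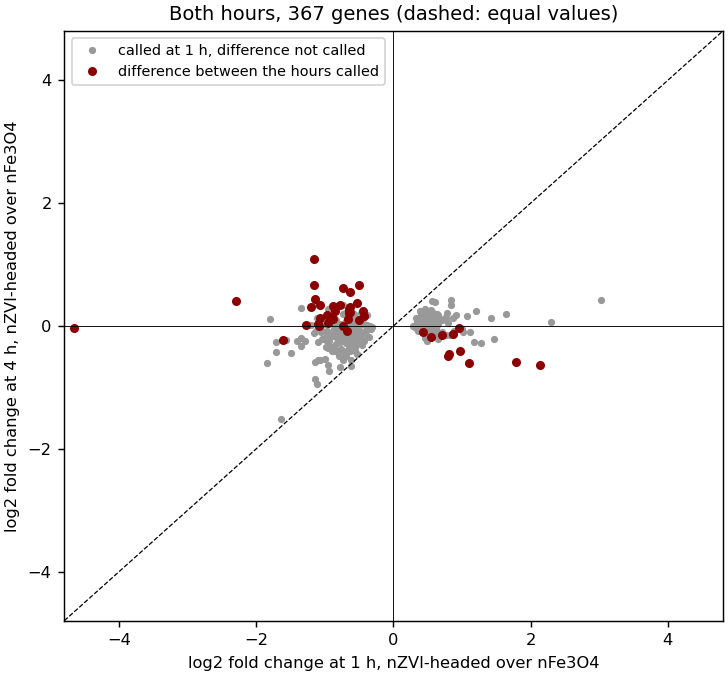
Log2 fold change of nZVI-headed over nFe3O4 cultures at 4 h (vertical axis) against that at 1 h (horizontal axis) for 367 genes called at 1 h (grey) or in the test of the difference between the hours (dark red). Most genes lie nearer to 0 at 4 h, and 42 of the 46 dark red points have opposite signs at the hours. The choice of the genes favours both. RSUB_12574 is the point near -1.5 on both axes.

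The authors' own analysis of these libraries listed more genes. By its fold changes, the authors' deposited table named for nFe3O4 against control at 4 h holds these libraries in the opposite direction, with r = -0.992 across 1551 genes tested here. The authors' deposited table that carries the name of nZVI against nFe3O4 at 4 h did not match this comparison. It listed 5815 genes, and across the 5651 tested here r was 0.356, with 1929 of opposite sign. RSUB_12574 was at 0.49 in that authors' deposited table. Its values matched control-headed over nFe3O4 libraries instead, with r = 0.984, under the exchange of names given above. These comparisons share the nFe3O4 libraries. In the authors' deposited table named for nFe3O4 against control, RSUB_12574 had a log2 fold change of 1.504 and RSUB_09032 one of 0.92. That authors' deposited table listed 1587 genes, and of the 1551 also tested here 1255 differed by less than 1.5-fold in it and 65 by at least 2-fold. Of those in that authors' deposited table, 683 (44.0%) had an unadjusted p below 0.05 here, and the groups' libraries did not overlap in 690 (44.5%). Over all genes these shares were 7.05% and 11.9%. The listed genes were chosen on these same libraries, which favours high shares, so the values are a description. With lanes entered as separate samples, the counts gave 1519 calls here, 722 higher and 797 lower in nZVI-headed cultures. Lanes of one library share its RNA, so that count does not measure the spread between cultures. Those calls were not compared with the authors' list. Whether the use of lanes accounts for its length was not tested.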

How the data were processed

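Per the labels' protocols, poly(A) RNA libraries were made with a strand-specific kit and read from both ends. The submitters' processing notes list, with no role given, HISAT2 and SAMtools, bedtools 2.27.1, Trimmomatic, Bcl2fastq, DESeq and DESeq2. Build and annotation: not given in the sources used here. Raw read counts were deposited by the authors per gene in 72 lane columns. Of lane counts from 1 to 20, 63.5% were even. Counting mates of a pair singly would raise this share, which was not tested. The authors also deposited a regularized log2 table of 50 genes, used for names only, and tables of DESeq2 results with other values (a mean count and a standard error), log2 fold changes, a Wald score, and p-values.

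Lanes were summed to libraries. The nFe3O4 1 h replicate 2 columns were exact copies of 1 lane of replicate 1 and were left out, leaving 17 libraries. Within a library, the chi-square of lanes, divided by its degrees of freedom, was 2.50 to 3.76, against 10.8 to 63.3 between libraries of a group.

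The quasi-likelihood test of edgeR 4.0.16 was run in R 4.3.3 with limma 3.58.1, TMM scaling, the low-count filter by group and 1 model of 6 group means over 17 libraries. A gene was called at a Benjamini-Hochberg adjusted p below 0.05 over 11841 genes. Log2 fold changes are nZVI-headed over nFe3O4. Standard errors and 95% intervals come from the fit's weights and posterior quasi-dispersion, with a median of 15.5 degrees of freedom. The common coefficient of variation was 0.190. The script was also run on data simulated from the fit, without a library set apart as nFe3O4 replicate 3 was. No result here rests on that run. Alternatives were DESeq2 1.42.0, limma-voom, other scalings, filters, sample sets, lane use and left-out libraries. Named genes are those with the smallest p per direction at a mean log2 CPM of at least 3. The comparison, levels and lists were chosen with earlier results of these data known.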

Additional observations from a re-analysis of the deposited data

Results flagged for a closer look

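The difference between nZVI-headed and nFe3O4 cultures was called as changed between 4 h and 1 h in 46 of 11841 genes, or 0.388%. The test was that of edgeR with Benjamini-Hochberg adjustment, over all 46 genes called. The named genes among them had a log2 fold change at 4 h minus that at 1 h of 1.18 for RSUB_00918, 0.94 for RSUB_11096, -1.69 for RSUB_11153 and -1.26 for RSUB_04614. They were singled out by the test of the difference between these time points, and their values by library are given above. The count of 46 was not stable. It was 0 with the nZVI-headed and nFe3O4 libraries alone, and 0 without nZVI 4 h replicate 2. The nFe3O4 group at 1 h has 2 libraries, and the hours may share flasks. Single libraries within the groups of 3 were not tested as outliers.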

How the results depend on the processing

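At 4 h RSUB_12574 kept its direction and its call under all 18 alternatives. The count of calls was 1 in most of them, 3 with genes of a mean log2 CPM of at least 3 alone, 26 with DESeq2, 341 (280 higher, 61 lower) with the leading axis of within-group variation as a covariate, 1519 with lanes as separate samples, and 1 to 4 over the fits that left out one library, with 4 without nZVI 4 h replicate 3. The axis was built from the residuals of these libraries. The cause of these changes was not tested, other than that fewer genes were tested with the abundance filter and more samples entered with separate lanes. The difference between the hours was called in 0 genes with the nZVI-headed and nFe3O4 libraries alone (971 with an unadjusted p below 0.05), 106 with DESeq2, 27 with the replicate block, 123 with libraries of one flask as a block and 0 to 61 over left-out libraries. No result named here reversed. Genes with a 95% interval inside 2-fold numbered 9034 to 9427 over left-out libraries and 9499 to 9604 under the other alternatives. At 4 h the replicate numbers did not pair nZVI-headed with nFe3O4 libraries: deviations of same-numbered nZVI-headed and nFe3O4 libraries correlated at -0.346, -0.00466 and -0.393, and nZVI-headed replicates 1 and 3 correlated best with nFe3O4 libraries of other numbers. With the replicate block the 4 h count stayed at 1. Changes under 2-fold stay undetectable for most genes below a mean log2 CPM of 0.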
